A study of Mus musculus with 4 samples.

Results

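Id1, Id2 and Id3, together with Bambi, Hey1, Smad6 and Smad7, were followed in mouse J1 embryonic stem cells that carried a doxycycline-inducible PRDM14 and were crossed with a combined knockdown of Tet1 and Tet2. All 9 probe sets whose platform annotation names one of these 7 genes were taken, out of 28898 probe sets with 1 named gene and 17097 genes in all. The genes were selected on their log2 signals and differences on these same 4 arrays, with earlier results known, so their levels and differences are given as a description and no p-value is attached to them.

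BMP ligands signal through paired serine/threonine kinase receptors that phosphorylate SMAD1, SMAD5 and SMAD9, which enter the nucleus with SMAD4 and switch on target genes. The Id genes are the classical direct targets: their proteins hold a helix-loop-helix without a DNA-binding basic region, and they tie up E proteins and other basic helix-loop-helix factors. In mouse embryonic stem cells kept with LIF, BMP from serum is known to hold back neural differentiation in part through Id proteins. Smad6, Smad7 and Bambi are also induced by the pathway and act back on it as inhibitors.

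Each of the 4 conditions was represented by 1 Affymetrix array, with no replicate: a scramble control, scramble with PRDM14, Tet1/Tet2 KD (knockdown), and Tet1/Tet2 KD with PRDM14. All groups came from the same inducible line, called iP14 in the labels, with or without doxycycline, grown without feeder cells in medium with 10% fetal calf serum and LIF. The title of the series concerns PRDM14, TET proteins and active DNA demethylation, and the arrays asked what TET1 and TET2 contribute to gene regulation by PRDM14. How many clones or cultures stand behind each array, how the knockdown was delivered beyond its short-hairpin name, and for how long PRDM14 was induced are not stated in the labels. In bulk RNA, fewer cells of a type and less RNA per cell cannot be told apart.

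Values are log2 signals of probe sets, and differences between arrays are log2 differences. Where a gene had several probe sets, the brightest by mean over the arrays stood for it. It was called when 2 arrays differed by at least 2-fold, a difference of 1, and the higher one reached 5.40, the middle of the whole distribution of named probe sets on the 4 arrays. That filter is not a measure of background. With 1 array per condition this is a rule of size and not a test. As a technical yardstick, the difference between 2 arrays had a pooled SD between probe sets of 1 gene of 0.15 to 0.22 over the 6 pairs of arrays. It covers neither cultures nor hybridisations.

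The arrays were alike in overall level, with medians of 5.09 to 5.11. Tet2 was lower on the knockdown arrays, with differences of −0.96 without and −1.18 with PRDM14 (−0.56 and −0.58 on its other probe set). Its brightest probe set read 8.46 on scramble, 9.33 on scramble with PRDM14, 7.50 on knockdown and 8.15 on knockdown with PRDM14. The other read 6.90, 7.11, 6.34 and 6.53 on the same arrays. Both were highest on scramble with PRDM14. On both, knockdown with PRDM14 lay closer to the scramble array than knockdown did. Tet1 was not analysed here. Prdm14 read 4.35 to 4.83, under the filter on all 4 arrays, so the PRDM14 labels were not checked and every direction rests on them. All 9 pluripotency markers on the array reached the filter, with a summed linear signal of 19999.7 to 22239.5. That sum is carried by the brightest markers. Single markers spanned from 0.09 (Dppa5a) to 1.03 (Esrrb) over the arrays, and none was called in a pairwise comparison. Esrrb read 8.85 on scramble and 7.82 on knockdown with PRDM14. Of 10 fibroblast or feeder markers 2 reached the filter, with Col1a1, Col1a2 and Col3a1 between 3.31 and 4.03. The scramble array stood furthest from the rest: 49 of 10519 genes lay at least 2-fold from all other arrays there, against 27 on scramble with PRDM14 and 7 and 12 on the knockdown arrays without and with it. Id1 and Id2 are among those 49. Comparisons that start from the scramble array cannot be made without it, so for each gene the values on the other 3 arrays are also given.

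Promoter sequence from RefSeq (GRCm38.p6), matched by symbol, was used for 3 of the 7 genes. No window was available for Id1 and Hey1, and those of Bambi and Smad7 were left out. The 3 sequences are shown because these genes differed between the arrays, and because Id2 and Smad6 each hold 1 SMAD-type element in the window. Bambi and Smad7 had the smallest spans over the arrays, and whether they hold the same motifs is not given here. No motif can therefore be tied to a difference between arrays. Each line runs from 240 bases before the annotated start to 10 bases from it, 5′ to 3′ on the gene's strand. Capitals mark matches to 5 motifs searched on both strands.
Id2 (chr12:25096083-25096332, minus strand): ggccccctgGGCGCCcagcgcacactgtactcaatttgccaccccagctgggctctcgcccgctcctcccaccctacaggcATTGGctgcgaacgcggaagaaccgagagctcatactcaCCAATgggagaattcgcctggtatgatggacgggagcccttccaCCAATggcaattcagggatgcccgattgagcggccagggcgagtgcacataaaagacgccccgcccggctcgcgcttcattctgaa
Id3 (chr4:136143582-136143831, plus strand): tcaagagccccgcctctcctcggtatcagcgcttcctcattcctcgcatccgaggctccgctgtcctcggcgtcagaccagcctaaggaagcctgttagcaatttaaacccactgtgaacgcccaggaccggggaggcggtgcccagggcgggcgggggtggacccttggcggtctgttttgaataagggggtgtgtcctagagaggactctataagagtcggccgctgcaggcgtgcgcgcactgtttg
Smad6 (chr9:64022050-64022299, minus strand): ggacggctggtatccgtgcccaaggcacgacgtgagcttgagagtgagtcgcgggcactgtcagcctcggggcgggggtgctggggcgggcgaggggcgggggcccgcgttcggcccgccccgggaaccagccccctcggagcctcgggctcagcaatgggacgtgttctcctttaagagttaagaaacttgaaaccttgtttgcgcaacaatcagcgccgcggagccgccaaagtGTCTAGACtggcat

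The GC-rich element bound by SMAD1 and SMAD5, GGCGCC, occurred in the Id2 window from base -231 to -226, and 9.77% of 32851 promoter windows of the same length hold it. The palindrome of 2 SMAD boxes, GTCTAGAC, lay across the Smad6 start, from base -4 to 4, and 0.158% of windows hold it. The CCAAT box occurred 3 times in Id2, once as ATTGG, and 33.8% of windows have at least 1. The E-box CACGTG (6.23% of windows) and the PRDM14 motif GGTCTCTAA (0.244% of windows) were found in none of the 3, and none of the 5 motifs was found in Id3. The motifs do not overlap one another in these windows. The 3 windows held more CpG than the median window, with 18 in Id2, 19 in Id3 and 24 in Smad6 against a median of 6. The share of windows with fewer was 77.4% for Id2, 79.4% for Id3 and 87.4% for Smad6. The motifs were chosen with these sequences in view, so the shares do not measure how unusual a match is. Such matches describe letters in a short window and are not evidence of binding.

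Id1 had the widest span of the 7 genes. Its single probe set gave 6.57 for scramble, 10.20 on scramble with PRDM14, 8.85 on knockdown and 9.79 on knockdown with PRDM14. The scramble array was thus the low one and the other 3 lay together at high levels, with each step in the order larger than the pooled SD between probe sets for that pair. The PRDM14 difference was 3.63, or 12.4-fold, in scramble cells and 0.94, or 1.92-fold, in knockdown cells. In scramble cells it ranked 1st from the top of 10366 genes and in knockdown cells 43rd of 10311, where it fell just under the 2-fold rule. The knockdown difference was 2.28 without PRDM14 and −0.41 with it. Among the 3 arrays other than scramble, Id1 spanned 1.35, lowest on the knockdown array.

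Id2, whose product binds the same class of factors as ID1, had the same order of arrays as Id1. The brightest of its probe sets read 7.98 on scramble, 10.52 on scramble with PRDM14, 9.82 on knockdown and 10.17 on knockdown with PRDM14. A second probe set read 7.17, 9.37, 8.71 and 9.11 on these arrays, so both place scramble lowest and scramble with PRDM14 highest. The PRDM14 difference in scramble cells was 2.54 on the first and 2.20 on the second, a gap between them larger than the pooled SD of 0.22 for that pair of arrays. In knockdown cells the PRDM14 difference was 0.35 and 0.40, and the knockdown difference was 1.83 and 1.54 without PRDM14 and −0.35 and −0.26 with it. The other probe set read 3.66 to 3.82 on all 4 arrays, below the filter. With the mean of all 3 probe sets the difference of 2.54 became 1.63 and that of 1.83 became 1.12, both still past 2-fold.

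Id3, a further member of the family, followed another order. It read 7.66 on scramble, 8.66 on scramble with PRDM14, 8.69 on knockdown and 8.07 on knockdown with PRDM14. Scramble with PRDM14 and knockdown did not differ beyond the pooled SD between probe sets. The scramble array was again lowest, but the doubly treated array came next rather than close to the top. The PRDM14 difference was 0.996 in scramble cells, 1.99-fold and just outside the 2-fold rule, and −0.62 in knockdown cells. The scaling decides that call: it was 1.01 with arrays centred on their medians and 1.03 with arrays shifted by housekeeping genes. Without PRDM14 the knockdown difference was 1.03, just inside the rule, and with PRDM14 it was −0.59.

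**Figure D1:**
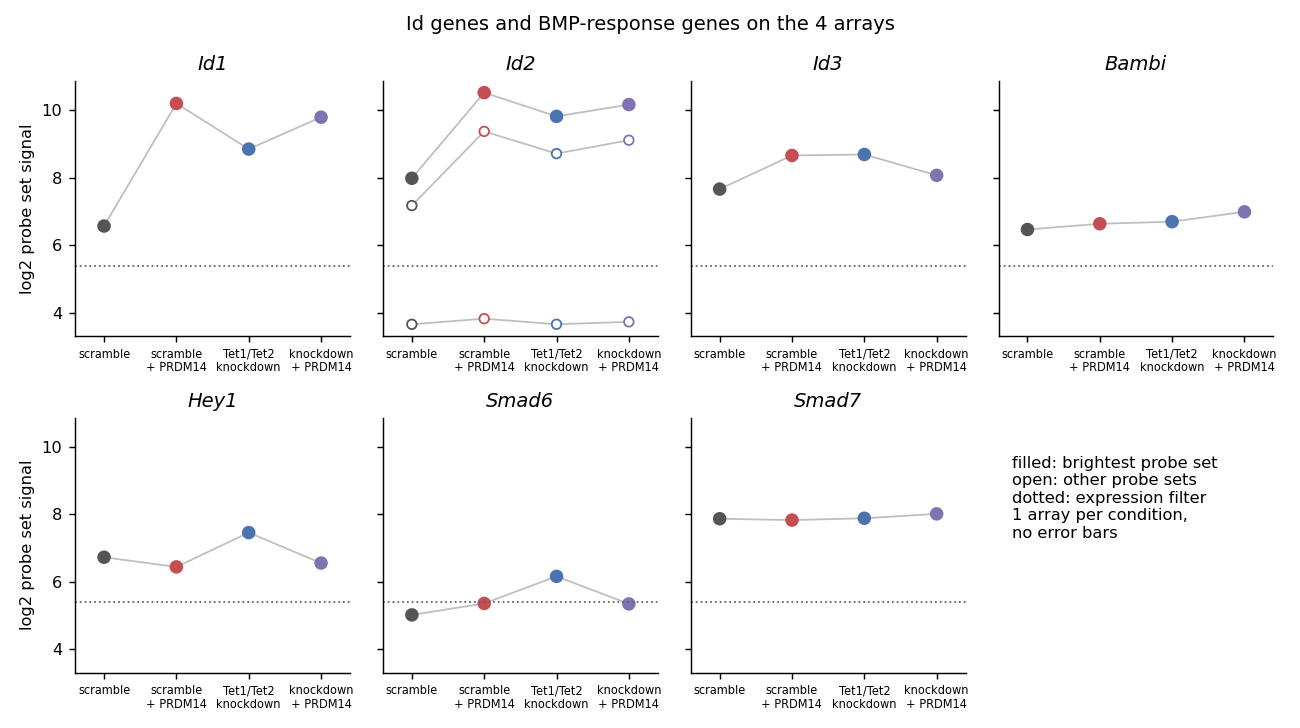
Log2 signal (y axis) of every probe set of the 7 genes on the 4 arrays (x axis), 1 array per condition and therefore without error bars. Filled points are the brightest probe set, open points the others and the dotted line the filter of 5.40; Id1 spans 6.57 to 10.20 while Smad7 stays between 7.83 and 8.01.

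Among the inhibitors of the pathway, Smad6 was high on 1 array. Its product is an inhibitory SMAD that competes with SMAD4 and blocks BMP receptors. It read 5.02 on scramble, 5.36 on scramble with PRDM14, 6.16 on knockdown and 5.35 on knockdown with PRDM14. The knockdown array alone reached the filter, and the arrays labelled with PRDM14 did not differ beyond the pooled SD. The knockdown difference without PRDM14 was 1.14, or 2.21-fold, and 0.77, under 2-fold, with the values below the filter raised to it. In knockdown cells the PRDM14 difference was −0.82.

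Smad7, the other inhibitory SMAD, which acts on both the BMP and the TGF-beta branch, was nearly flat. It read 7.87 on scramble, 7.83 on scramble with PRDM14, 7.89 on knockdown and 8.01 on knockdown with PRDM14, and no neighbours in that order differed beyond the pooled SD. Bambi encodes a receptor-like membrane protein without a kinase domain. It read 6.46, 6.63, 6.70 and 6.99 on the same arrays, all under 2-fold apart, with the highest value on knockdown with PRDM14. Its 4 pairwise differences lay between 0.17 and 0.35.

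Hey1, a basic helix-loop-helix repressor that responds to Notch as well as to BMP, was highest on the knockdown array. It read 6.73 on scramble, 6.44 on scramble with PRDM14, 7.46 on knockdown and 6.56 on knockdown with PRDM14. The other 3 values lay close together, with neighbours in the order not beyond the pooled SD. The PRDM14 difference was −0.29 in scramble and −0.90 in knockdown cells. The knockdown difference was 0.73 without PRDM14 and 0.11 with it. Hey1 thus shared its highest array with Smad6 and, within the pooled SD, with Id3, and not with Id1 or Id2.

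Across the 7 genes, the PRDM14 comparison in scramble cells called 2 genes higher, Id1 and Id2, beside 1.09% of all genes, and 0 lower, beside 1% of all genes. The rule that chose the genes knew these values, so nothing is read from that count. The median over the 7 was 0.34, which is the Smad6 value itself. Beside it, the median was 0.002 over the 10366 genes tested, of which Smad6 was not one. In knockdown cells 0 of the 7 were called and 0.63% of 10311 genes were; at 1.5-fold 4 of the 7 were past the threshold, Id1, Id3, Hey1 and Smad6, beside 2.81% of genes. The median was 0.13 beside −0.0009, and the 7 genes were split, with 4 above and 3 below 0. Hey1, Smad6 and Id3 were 34th, 47th and 118th from the bottom of all genes tested, while Id1 was 43rd from the top.

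**Figure D2:**
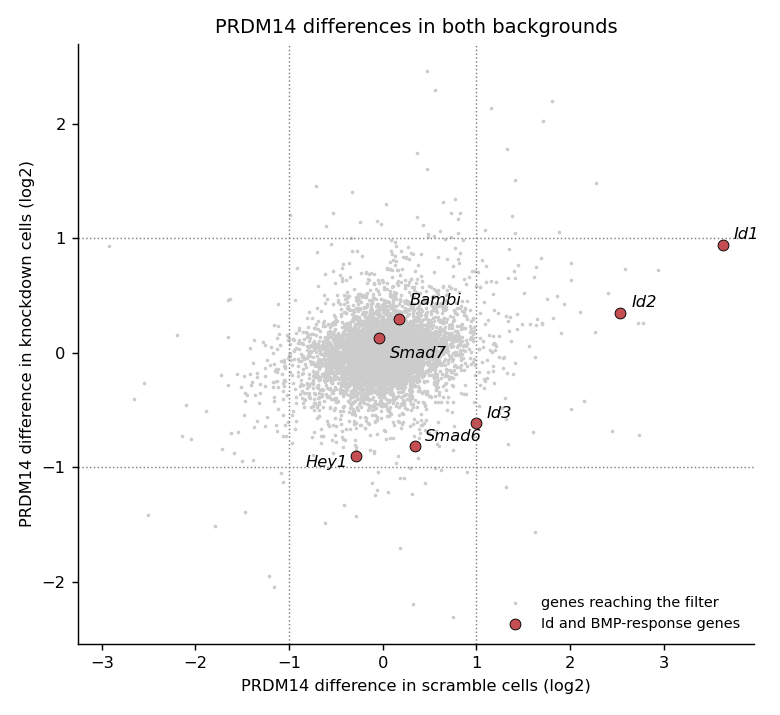
PRDM14 difference in log2 units in scramble cells (x axis) against that in knockdown cells (y axis), 1 grey point per gene reaching the filter on at least 1 of the 4 arrays (10519 genes) and red points for the 7 genes. Dotted lines mark 2-fold; Id1 and Id2 lie far to the right at 3.63 and 2.54 but under the upper line at 0.94 and 0.35, and Hey1, Smad6 and Id3 lie low in knockdown cells.

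Knockdown without PRDM14 called 4 of the 7 genes higher, Id1, Id2, Id3 and Smad6, beside 0.618% of 10351 genes called higher. At 3-fold Id1 and Id2 were left, beside 0.203% of genes in either direction. All 7 differences were above 0, from 0.02 for Smad7 to 2.28 for Id1, with a median of 1.03 beside 0.008 over all genes tested. Here too the genes were chosen with these values known, so nothing is read from the count or the median. This comparison and the first PRDM14 comparison share the scramble array, so their likeness for the Id genes is not a separate result. Knockdown with PRDM14 does not use that array. It called 0 of the 7, beside 1.1% of 10322 genes (at 1.5-fold 1 of the 7, Id3, beside 4.34%). Differences ran from −0.59 for Id3 to 0.35 for Bambi. The median of −0.01, beside 0.003, is the Smad6 value, and Smad6, below the filter on both arrays, was not tested.

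The PRDM14 difference in knockdown cells minus that in scramble cells was −2.69 for Id1, −2.19 for Id2, −1.61 for Id3, −1.15 for Smad6 and −0.62 for Hey1. It was 0.12 for Bambi and 0.17 for Smad7. Id1 was the 5th lowest and Id2 the 14th lowest of 10519 genes, Id3 the 31st and Smad6 the 95th. In all 4 were past 2-fold, all lower, beside 1.29% of genes lower and 2.27% in either direction. With values below the filter raised, Smad6 was at −0.77 and 3 remained past it. The scramble array, the lowest for Id1, Id2, Id3 and Smad6, enters this quantity too, so its size is not independent of the comparisons above.

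Outside the 7 genes, between 0 and 3 genes of the pathway lists were called in each pairwise comparison. Over 9 pathway lists, 118 of 130 genes were on the array, and 73 reached the filter. For PRDM14 in scramble cells 1 of 72 genes tested, or 1.39%, was called, beside 2.09% of all genes, with a median of −0.02 beside 0.002. For PRDM14 in knockdown cells 0 of 71 was called, beside 0.63% (median 0.007 beside −0.0009). For knockdown without PRDM14 2 of 71, or 2.82%, were called, both higher, beside 0.618% of all genes called higher (median 0.04 beside 0.008). For knockdown with PRDM14 1 was higher and 2 were lower of 72, or 4.17%, beside 1.1% (median 0.04 beside 0.003). The difference between the PRDM14 differences was past 2-fold for 3 of 73, or 4.11%, beside 2.27%: Tcf12 was higher, and Klf4 and Zfp423 were lower.

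Among the ligands 4 of 10 on the array reached the filter and none was called in any of the 4 pairwise comparisons. Bmp4, the ligand most used to maintain embryonic stem cells, read 6.62 on scramble, 7.27 on scramble with PRDM14, 7.08 on knockdown and 6.79 on knockdown with PRDM14. Its lowest array was the scramble array, as for Id1, but the arrays spanned less than 2-fold. Bmp7 read 7.63, 7.46, 7.72 and 7.44. Medians of the 4 tested ligands lay between −0.16 and 0.09.

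Of the receptors and co-receptors, 7 of 10 reached the filter and 0 were called in the 4 pairwise comparisons. Acvr2b, a type II receptor shared with activin, read 7.17, 6.78, 7.03 and 6.997 on the arrays in the order given for Bmp4, and the co-receptor Rgmb read 6.88, 6.98, 6.93 and 6.89. Receptor medians lay between −0.11 and 0.06. Of 13 secreted antagonists 3 reached the filter and 0 were called, and follistatin (Fst), which binds activin and some BMPs, read 5.85, 6.49, 6.01 and 6.42. Twsg1, a modulator of BMP binding, read 7.37, 7.13, 7.31 and 7.41.

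The SMAD list held 11 genes above the filter, and 1 was called, in 2 comparisons that share the scramble array. Zfp423, a zinc finger cofactor that joins BMP-activated SMADs on target promoters, read 5.82 on scramble, 7.001 on scramble with PRDM14, 6.86 on knockdown and 6.70 on knockdown with PRDM14. Its low array was scramble, as for the Id genes, and its other 3 values were within 0.30 of each other, where those of Id1, Id2 and Id3 spanned 1.35, 0.70 and 0.62. The PRDM14 difference was 1.18 in scramble cells, beside 1.09% of all genes called higher there, and −0.16 in knockdown cells. The knockdown difference was 1.04 without PRDM14, beside 0.618% of genes called higher, and −0.30 with it. Smad1 read 7.53, 7.29, 7.89 and 7.86, and Smad4, the shared partner, read 9.47, 9.23, 9.34 and 9.33.

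Of 8 other BMP-SMAD targets tested, 1 was called higher in the knockdown without PRDM14, beside 0.618% of all genes called higher, and 1 lower with it, beside 1.1% of all genes called in either direction. Dusp9, a phosphatase of ERK kinases known as a BMP target in embryonic stem cells, read 5.65 on scramble, 6.28 on scramble with PRDM14, 6.83 on knockdown and 6.96 on knockdown with PRDM14. Its knockdown difference without PRDM14 was 1.17, and 1.12 and 0.24 on its other probe sets. Tbx3, a T-box factor of pluripotent cells, read 7.24, 7.93, 7.04 and 6.89, and its knockdown difference with PRDM14 was −1.04. Id4, the remaining family member, was named after its values were seen: its brightest probe set read 5.94, 6.13, 6.01 and 6.37, while a second read 5.08, 6.12, 6.26 and 6.10. On that second probe set Id4 was low on scramble and 1.04 and 1.18 higher on scramble with PRDM14 and on knockdown, a pattern the brightest one did not have.

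Among basic helix-loop-helix factors, the class that ID proteins act on, 6 of 14 reached the filter. Tcf12, an E protein, read 7.85 on scramble, 6.96 on scramble with PRDM14, 7.95 on knockdown and 8.14 on knockdown with PRDM14. It was low only on the array where Id1 and Id2 were highest, and its knockdown difference with PRDM14, 1.18, was the 1 call of the list in the pairwise comparisons, beside 1.1% of all genes. Its other probe set read 6.20 to 6.34 with no call, so the difference rests on 1 of 2 probe sets. Tcf3, the E2A gene, read 7.84, 7.55, 7.72 and 7.71.

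The Notch and HES list, which bears on Hey1, had 17 genes above the filter and 0 called in the 4 pairwise comparisons. Rbpj, the DNA-binding partner of Notch, read 8.02, 7.96, 8.17 and 8.10 on the 4 arrays in that order. Dtx1 read 8.02, 7.87, 7.72 and 7.73. Notch1 was highest on the knockdown array, as Hey1 was, at 7.33 against 6.91 to 7.03. Rbpj and Dll3 were highest there too, while Dll1, Heyl, Rfng, Maml1 and Dtx1 were lowest there. The list median for knockdown without PRDM14 was −0.03, beside 0.008 over all genes tested. The TGF-beta and activin list had 11 genes tested and 0 called, with Tgif1, a corepressor, highest at 8.94 on scramble with PRDM14 and lowest at 8.07 on scramble. In the LIF and STAT3 list 1 of 7 was called, Klf4, beside 1.1% of all genes: it was at −1.21 in the knockdown with PRDM14 and at −2.24 on its other probe set. Skil, a corepressor of SMADs, read 9.66, 9.95, 10.02 and 10.04.

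**Figure D3:**
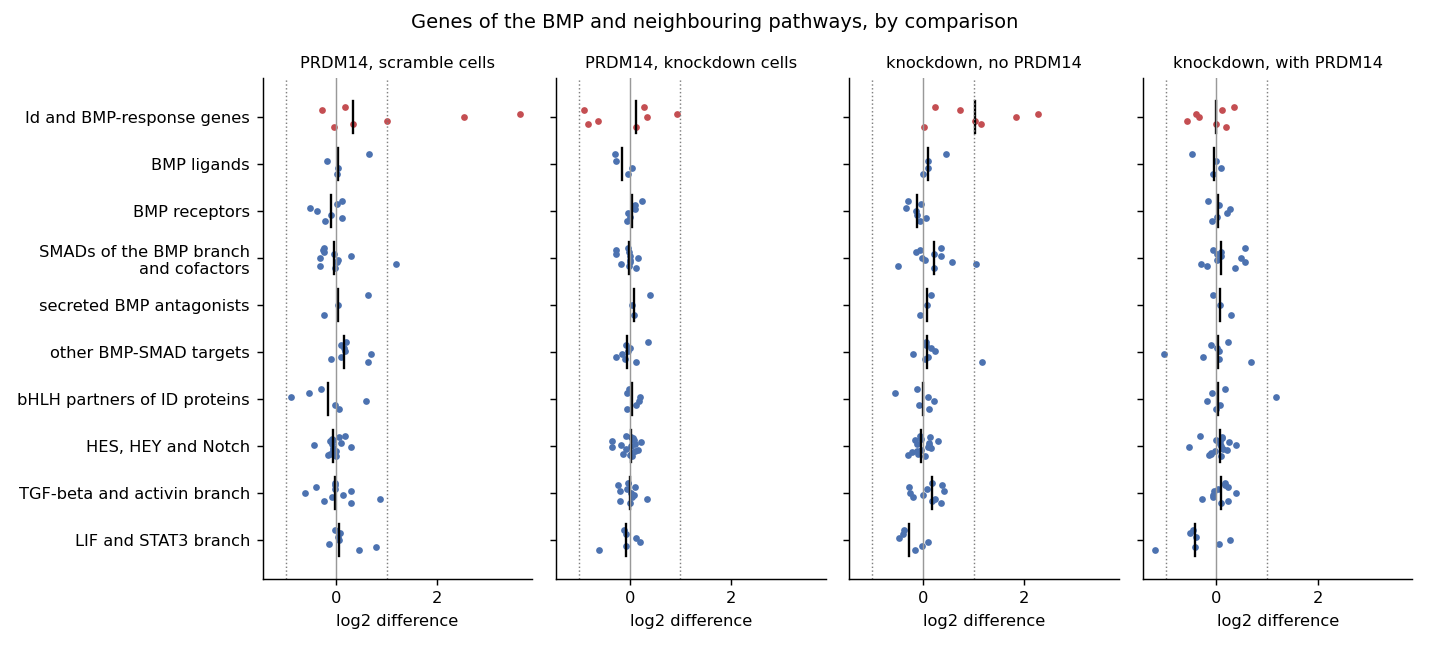
Log2 differences (x axis) of the 7 genes (red, all shown) and of the genes of the 9 pathway lists tested in that comparison (blue) in the 4 pairwise comparisons, with the list median as a black bar and dotted lines at 2-fold. In the knockdown without PRDM14 the red median is 1.03 and the list medians lie between −0.27 and 0.22. The 7 genes were chosen with these differences known, so nothing is read from that gap.

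By the root mean square difference of centred log2 values over the 4 arrays, the gene most like Id1 among 10512 was Nefl (neurofilament light chain, 0.39), followed by Cdh2 (N-cadherin, 0.46), Coch (0.53), Car2 (carbonic anhydrase, 0.60) and Colec12 (0.61). Id2 lay at 0.45 from Id1, between Nefl and Cdh2. The genes most like Id2 were Cdh2 (0.16), Car2 (0.21), Nefl (0.25), Gja1 (the gap junction protein connexin 43, 0.27) and 1700097N02Rik (0.28). Chosen by likeness on the same 4 arrays, all of these were lowest on the scramble array, as that choice implies. Cdh2, Coch and Colec12 read below the filter there. Each gene was placed by its brightest probe set. The other Nefl probe set read 5.25 on scramble, 5.96 on scramble with PRDM14, 5.94 on knockdown and 6.44 on knockdown with PRDM14. Its PRDM14 difference in scramble cells was 0.71, against 2.59 on the brightest, so the likeness of Nefl to Id1 rests on the brightest probe set.

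Id3 was nearest to Ndrg1 (0.10), the mitochondrial pyruvate carrier Mpc1 (0.13), the matrix glycoprotein Sparc (0.14), the neuronal tubulin Tubb3 (0.15) and Myo1f (0.16). The genes nearest to Hey1 were Fam216a, Rims1, Adam19, Gnb4 and Enpp4, at 0.09 to 0.10, all highest on the knockdown array. Those nearest to Smad6 were Msc (musculin, a basic helix-loop-helix repressor, 0.09), Adam9, Tppp3, Mpp1 and Dennd2a, up to 0.15. Smad6 and Hey1 lay at 0.23 from each other, which made Smad6 the 102nd nearest to Hey1 of 10518 genes. Genes with small spans lie close to many others, and these likenesses rest on 4 points each. A high or low array shared with the nearest genes follows from how they were chosen.

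**Figure D4:**
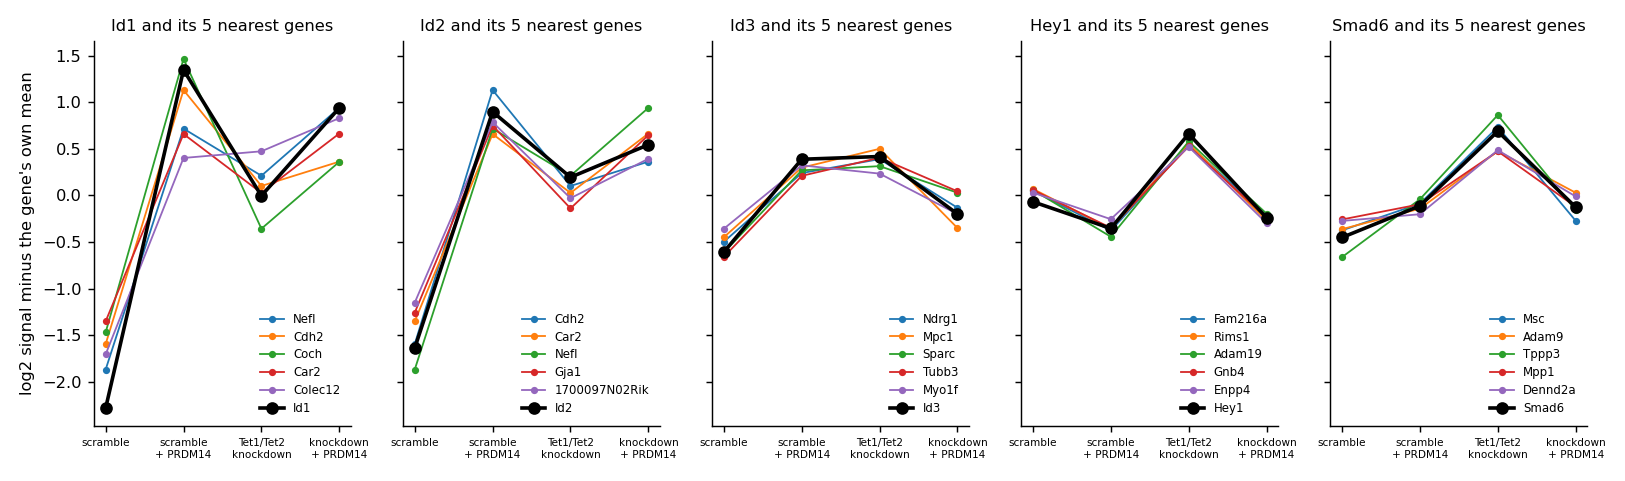
Log2 signal minus the gene's own mean over the 4 arrays (y axis) on each array (x axis) for the 5 genes among the 7 that spanned at least 2-fold (black) and, for each, its 5 nearest other genes (coloured). Id1 and Id2 and their nearest genes are lowest on the scramble array, Id3 peaks on scramble with PRDM14 and knockdown, and Hey1 and Smad6 peak on the knockdown array. The coloured genes were chosen by their likeness on these 4 arrays, so a shared shape follows from the choice.

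The summed linear signal of 6 neuroectoderm markers was 293 on scramble, 661 on scramble with PRDM14, 482 on knockdown and 587 on knockdown with PRDM14. That order turned on Nefl, the gene nearest to Id1 above: without it, a sum added after the values were seen, the other 5 markers gave 245, 373, 279 and 251. The medians of the 6 were 5.76, 6.61, 5.78 and 5.84, and none of the 6 had the order of Id1 by itself. Of these 6 markers 4 reached the filter, each represented by its brightest probe set. For Nefl the other probe set had a PRDM14 difference in scramble cells of 0.71, against 2.59 on the brightest. The other Pax6 probe sets all read below the filter. Their PRDM14 differences in scramble cells were −0.16 to 0.46, against 0.87 on the brightest. Their knockdown differences without PRDM14 were −0.17 to −0.06, against −0.89. Nefl read 5.58, 8.17, 7.66 and 8.39, Tubb3 read 5.94, 6.81, 7.002 and 6.64, Pax6 read 6.26, 7.12, 5.36 and 5.69, and Ncam1 read 6.11, 6.41, 6.20 and 5.99, while Sox1 and Nes, which mark neural progenitors, stayed between 3.92 and 4.56. Their part in the Id differences was not tested. The primitive endoderm list summed to 356, 395, 364 and 371, the mesoderm list to 410, 417, 446 and 420, the fibroblast list to 250, 262, 254 and 257, and the trophectoderm list to 440, 429, 449 and 595, the last led by Krt18 at 7.74 on knockdown with PRDM14.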

How the data were processed

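Per the labels' protocols, a GeneChip 3′ IVT Express kit was used on 150 ng of total RNA per sample, and groups were taken from the sample titles. The authors deposited normalized log2 signals, 1 per probe set and array. The log base was inferred from their range, 2.78 to 13.2. The submitters' processing notes name Affymetrix Expression Console. Neither its version nor the summary method or background correction is stated there, so compression of low signals cannot be judged.

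Of 45141 probe sets, 551 named several genes, 15588 none and 104 were controls. These were left out. The annotation's Entrez identifiers gave the same RefSeq symbol for all 9 probe sets described. Differences, ranks and profile distances were computed over all named genes in Python 3.11.15 with pandas 2.3.3 and numpy 2.4.6, figures were drawn with matplotlib 3.10.9, and the code was tested on simulated data. The number of arrays limits the precision. Named list genes are those called in a pairwise comparison or, failing that, the 2 brightest of a list. Id4, Smad1, Smad4, Tcf3, Notch1 and the markers outside that rule were added after their values were seen. The genes and lists were chosen with earlier results of these data known, and the motifs with the promoter sequences in view.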

Additional observations from a re-analysis of the deposited data

Results flagged for a closer look

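Opposite signs of 1 difference in the 2 settings of the other factor flagged the following values. With 1 array per condition none of these contrasts between settings was tested. The PRDM14 difference was 0.996 in scramble and −0.62 in knockdown cells for Id3, 0.34 and −0.82 for Smad6, and −0.0395 and 0.129 for Smad7. Both Smad7 values are smaller than the pooled SD between probe sets for their arrays. The knockdown difference was 2.28 without and −0.41 with PRDM14 for Id1, 1.83 and −0.35 for Id2, 1.03 and −0.59 for Id3, and 1.14 and −0.0139 for Smad6. The Smad6 values of 0.34 and −0.0139 each compare 2 arrays below the filter, were not among the genes tested there, and become 0 with values raised to the filter. The second is also smaller than the pooled SD of 0.16 for its arrays. In each of these pairs the first value starts from the scramble array.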

How the results depend on the processing

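The threshold was set to 1.5- or 3-fold, the filter dropped, values below it raised to it, all probe sets of a gene averaged, and the arrays rescaled in 2 ways. With 1.5-fold, 4 of the 7 genes were called for PRDM14 in knockdown cells (Id1, Id3, Hey1 and Smad6) beside 2.81% of all genes, and 1, Id3, for knockdown with PRDM14 beside 4.34%, in place of 0 in both. With 3-fold, 2 in place of 4, Id1 and Id2, were called for knockdown without PRDM14, beside 0.203%. Of 245 single differences under all alternatives, 230 kept their side of the threshold, 10 came past it and 5 fell below it. None changed sign, but another threshold or no filter leaves every difference as it is, so no sign could change there. Averaging probe sets could alter only Id2, and raising values to the filter only Smad6. No paired analysis was possible because each condition has 1 array, and leaving out an array leaves no comparison that uses it. Background was not determined per probe set here, so how much of the low Smad6 values is signal cannot be given.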
